A study of Mus musculus with 4 samples.

Results

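The sodium pump and the ion channels of the basolateral membrane were followed in mouse renal cortex through 5 genes: Atp1b1, Fxyd2, Kcnj10, Kcnj16 and Bsnd. They were taken by name from the 22078 gene identifiers in the deposited count tables, and all 5 had counts in every library. The cells came from Drop-seq, a droplet method that tags each captured mRNA with a cell barcode and a unique molecular identifier (UMI), so that a UMI count is a count of captured mRNA molecules. There were 2 libraries from diabetic mice (C57BL/6-Ins2Akita/J, in which a mutated Ins2 insulin gene leads to loss of beta cells) aged 116 and 119 days, and 2 from wild-type mice aged 45 and 51 days. All mice came from one supplier and ate standard chow, and each suspension was made from renal cortex with collagenase IV. Genotype ran with age in these libraries, and the effects of both cannot be told apart. The growth protocol gives a housing time that exceeds all of these ages and a larger number of mice per group than the design text, and neither conflict could be settled from the labels.

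Most tubule cells drive transport with Na,K-ATPase, the sodium pump of their basolateral membrane. The pump needs a catalytic alpha subunit, a beta subunit that brings it to the membrane, which in the kidney is chiefly the product of Atp1b1, and it can carry an FXYD protein that tunes its affinity, such as the gamma subunit encoded by Fxyd2. The potassium that the pump brings in leaves again through basolateral channels. In the distal convoluted tubule this channel is formed by Kir4.1 (Kcnj10) together with Kir5.1 (Kcnj16), and Kir5.1 also joins other partners in the proximal tubule. Chloride leaves through channels that require barttin, the product of Bsnd, to reach the membrane. Variants of KCNJ10, FXYD2 or BSND can cause salt- or magnesium-losing tubule disease in people.

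Of the barcodes, 1916 were retained as cells. The diabetic libraries gave 311 and 600 of them and the wild-type libraries 564 and 441, with 557780 to 812747 UMIs per library. The retained cells were clustered without the 5 genes and without the related transport genes described further on, so that these genes did not define the classes between which they are compared. By marker genes, 1445 cells were proximal tubule-like, 49 distal convoluted tubule-like, 59 connecting tubule-like, 111 intercalated-like and 17 macrophage- or dendritic-like. Another 172 cells had the most markers of the thick ascending limb of the loop of Henle, led by Umod and Egf, but the defining transporter of that segment did not bear the name out. Slc12a1, the sodium-potassium-chloride cotransporter, was at 85.7 CPM (counts per 1000000 UMIs of the summed cells) in the larger of their 2 sub-clusters (112 cells) and at 3791 CPM in the smaller (60 cells), while Slc12a3, the thiazide-sensitive cotransporter of the distal convoluted tubule, was at 3170 and 5723 CPM. These 172 cells are therefore called Umod-led cells. A further 63 cells carried markers of both segments at a median of 2463 UMIs, about 3.02 times their libraries' medians, and stayed unnamed. These 3 groups and the distal convoluted tubule-like cells had formed 1 cluster of 284 cells before it was split. Ins2 had 0 UMIs in all 4 files.

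A total of 884 barcodes occurred in both Akita replicate 2 and Wild-type replicate 1, against 3 or 4 for any other pair of files. They made up 438 retained cells (73.0%) in the former and 454 (80.5%) in the latter, so as deposited these libraries are not independent of each other. Values below use all cells as deposited. Where stated, they were recomputed after assigning every shared barcode to a single file, chosen by where its UMI count was relatively larger, which left 1492 cells (called single-file values). Another alternative left out all shared barcodes. Wild-type replicate 1 then kept 4 Umod-led, 1 distal convoluted tubule-like, 0 connecting tubule-like and 0 intercalated-like cells. Akita replicate 2 then kept 3 distal convoluted tubule-like cells. Sums of under 5 cells stayed out, so these class comparisons rested on fewer than 4 libraries. By genotype in Umod-led cells, Wild-type replicate 2 was then the only wild-type library. A rough gauge of free RNA came from 5785 barcodes with under 200 genes and no limit on mitochondrial UMIs. They can also hold shallow or broken cells, so free RNA itself was not measured. In these barcodes Atp1b1 was at 822 CPM, Fxyd2 at 2309, Kcnj16 at 344, Kcnj10 at 53.5 and Bsnd at 11.3 CPM.

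On GRCm38, in the GENCODE annotation, Atp1b1 (ENSMUSG00000026576) lies on the minus strand of chromosome 1 from 164437109 to 164458355, and Kcnj10 (ENSMUSG00000044708) on the plus strand of the same chromosome from 172341210 to 172374085. Kcnj16 (ENSMUSG00000051497) lies on the plus strand of chromosome 11 from 110968033 to 111027968, Fxyd2 (ENSMUSG00000059412) on the plus strand of chromosome 9 from 45399669 to 45410278, and Bsnd (ENSMUSG00000025418) on the minus strand of chromosome 4 from 106483456 to 106492283. All 5 are protein-coding. Only Atp1b1 overlaps another annotated gene, Nme7 on the other strand, which had 19 UMIs in the retained cells against 7506 for Atp1b1; whether counting used strand is not given in the sources used here. RefSeq promoters (GRCm38.p6) matched 3 of the 5 genes, Atp1b1, Kcnj10 and Kcnj16. The 250 bases before the start are shown for Atp1b1 and Kcnj10, which were higher in Umod-led, distal convoluted and connecting tubule-like cells than in proximal ones. They are also shown for the most upstream of the 4 start sites of Kcnj16, whose levels differed less between those classes and the proximal one. Capitals mark the TATA box core TATATA or the half-site GTTAAT of hepatocyte nuclear factor 1, a kidney transcription factor, which is printed here as its reverse complement ATTAAC. Both were searched on both strands. They are given 5′ to 3′ on the gene's strand:
Atp1b1 (chr1:164458356-164458605, minus strand): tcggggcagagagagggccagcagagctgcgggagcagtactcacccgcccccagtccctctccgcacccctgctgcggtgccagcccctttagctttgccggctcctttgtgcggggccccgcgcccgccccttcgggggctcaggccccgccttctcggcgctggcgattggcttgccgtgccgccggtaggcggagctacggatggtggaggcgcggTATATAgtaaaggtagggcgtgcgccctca
Kcnj10 (chr1:172340960-172341209, plus strand): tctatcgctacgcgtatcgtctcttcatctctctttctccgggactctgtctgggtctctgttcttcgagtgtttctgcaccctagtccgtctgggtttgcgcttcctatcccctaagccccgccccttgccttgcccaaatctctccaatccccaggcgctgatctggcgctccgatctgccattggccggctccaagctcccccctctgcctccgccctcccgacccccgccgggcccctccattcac
Kcnj16 (chr11:110967783-110968032, plus strand): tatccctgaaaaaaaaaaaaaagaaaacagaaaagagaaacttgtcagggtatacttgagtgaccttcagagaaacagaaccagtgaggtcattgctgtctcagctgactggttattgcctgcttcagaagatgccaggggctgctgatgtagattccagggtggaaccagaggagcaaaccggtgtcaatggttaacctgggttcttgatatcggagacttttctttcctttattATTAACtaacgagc
The Atp1b1 window held 70.4% G and C with 24 CpG pairs, and the Kcnj10 window 62.0% with 17 CpG pairs. The Kcnj16 window held 42.8% with 3 CpG pairs, and its other 3 windows 44.8% to 51.2% with 1 to 7, against a median of 52.4% G and C over 32851 promoters. The TATA core was found in the Atp1b1 window only and the half-site only in the most upstream Kcnj16 window. Over all promoters of the same length, 5.25% held the first and 6.43% the second, and the full palindromic site was in 3 of all promoters and in none of these windows. A match is a string of letters and no evidence of binding, and Drop-seq reads the 3′ ends of mRNAs, so the start site used was not measured.

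The beta subunit gene Atp1b1 was lower in proximal tubule-like cells than in each of the other 4 tubule classes. Proximal tubule-like cells had 1383 and 1657 CPM in Akita replicates 1 and 2, and 1462 and 1786 CPM in Wild-type replicates 1 and 2. In Umod-led cells the 4 values were 6322, 7006, 8201 and 7577 CPM in the same order of libraries, which is kept below, and no Umod-led value came near a proximal one. Distal convoluted tubule-like cells gave 5244, 5969, 4892 and 7295 CPM, and connecting tubule-like cells 7579, 6121, 6352 and 10753 CPM, so that these 3 classes overlapped in every pairing. Intercalated-like cells stood between, at 3117, 3163, 3703 and 4477 CPM, above every proximal value and below every value of the other 3 classes. The classes thus ran, by their means, from proximal (1572 ± 183 CPM, SD, n = 4) through intercalated (3615 ± 634) and distal convoluted (5850 ± 1062) to Umod-led (7276 ± 802) and connecting (7701 ± 2133), the last 3 within one another's spread. The 17 macrophage- or dendritic-like cells held 5 Atp1b1 UMIs, 428 CPM with a 95% Poisson interval of 139 to 1000.

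The gamma subunit gene Fxyd2 was abundant in every class and differed far less between them. Proximal tubule-like cells had 5102, 6480, 5918 and 6787 CPM. Umod-led cells had 9143, 11632, 12434 and 9778 CPM, all above the highest proximal value. Distal convoluted tubule-like cells ranged from 3808 to 12015 CPM, connecting tubule-like cells from 3062 to 11617 CPM and intercalated-like cells from 6358 to 8059 CPM, each overlapping the proximal range. The connecting tubule-like values rested on 18 and 41 UMIs in Akita replicate 1 and in Wild-type replicate 2, against 298 and 166 in the libraries that share barcodes. The lower values lay in the libraries that do not share barcodes, and the cause of the spread was not tested. Macrophage- or dendritic-like cells, which should lack the gene, held 44 Fxyd2 UMIs, 3770 CPM, and barcodes under 200 genes 2309 CPM, and the part of free RNA in the Fxyd2 values of the tubule classes was not tested.

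Kcnj10, the Kir4.1 channel, showed the widest range among the 4 genes with enough counts to test. Proximal tubule-like cells held 12, 11, 11 and 22 UMIs, or 27.9, 19.5, 16.9 and 39.9 CPM, which was below the 53.5 CPM of the barcodes under 200 genes. Umod-led cells held 3, 21, 22 and 27 UMIs, or 146, 467, 651 and 772 CPM. Distal convoluted tubule-like cells were at 312, 294, 415 and 858 CPM, from 3 to 10 UMIs each. Connecting tubule-like cells had no UMI in the 6 cells of Akita replicate 1 and 585, 529 and 523 CPM in the others, and intercalated-like cells ranged from 0 to 102 CPM on 7 UMIs in all. The 3 distal classes overlapped, and the intercalated-like values were below 53.5 CPM in 2 libraries and above it in the other 2.

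Kcnj16, the Kir5.1 partner of Kir4.1, did not follow Kcnj10 down in the proximal tubule. It was at 780, 626, 657 and 634 CPM in proximal tubule-like cells, on 336 to 428 UMIs per library and above the 344 CPM of barcodes under 200 genes. Umod-led cells had 1410, 867, 770 and 944 CPM, of which the 770 of Wild-type replicate 1 lay below the highest proximal value. Distal convoluted tubule-like cells ranged from 429 to 1061 CPM, on both sides of the proximal range. Connecting tubule-like cells were highest at 1837, 1208, 1588 and 1120 CPM, all above the proximal values. Intercalated-like cells were lowest at 187, 176, 204 and 84.0 CPM, on 3 to 7 UMIs each, below every value of the other 4 tubule classes and below the level of those barcodes. Proximal tubule-like cells, which contributed 78.2% of all UMIs, held 75.4% of the Kcnj16 UMIs but 20.9% of the Kcnj10 UMIs, 47.1% of the Atp1b1 UMIs, 69.9% of the Fxyd2 UMIs and 13.1% of the Bsnd UMIs (single-file values). Most Kcnj16 molecules thus came from proximal tubule-like cells and most Kcnj10 molecules did not.

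Bsnd, the barttin subunit, was sparse, with 17, 27, 17 and 16 UMIs in the 4 libraries. Intercalated-like cells had the highest mean, with 4, 6, 3 and 11 UMIs, or 249, 151, 102 and 308 CPM (202 ± 93.3 CPM, SD, n = 4). Connecting tubule-like cells held 0, 3, 2 and 1 UMIs, and distal convoluted tubule-like cells 1 UMI in all, in Akita replicate 1. Umod-led cells held 4 and 2 UMIs in Akita replicates 1 and 2 and none in wild type, all of them in the smaller sub-cluster with Slc12a1. The unnamed deep cells held 7, 14, 11 and 0 UMIs, together 125 CPM. Proximal tubule-like cells held 8 UMIs in all, 3.64 CPM with a 95% Poisson interval of 1.57 to 7.17, below the 11.3 CPM of barcodes under 200 genes.

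**Figure D1:**
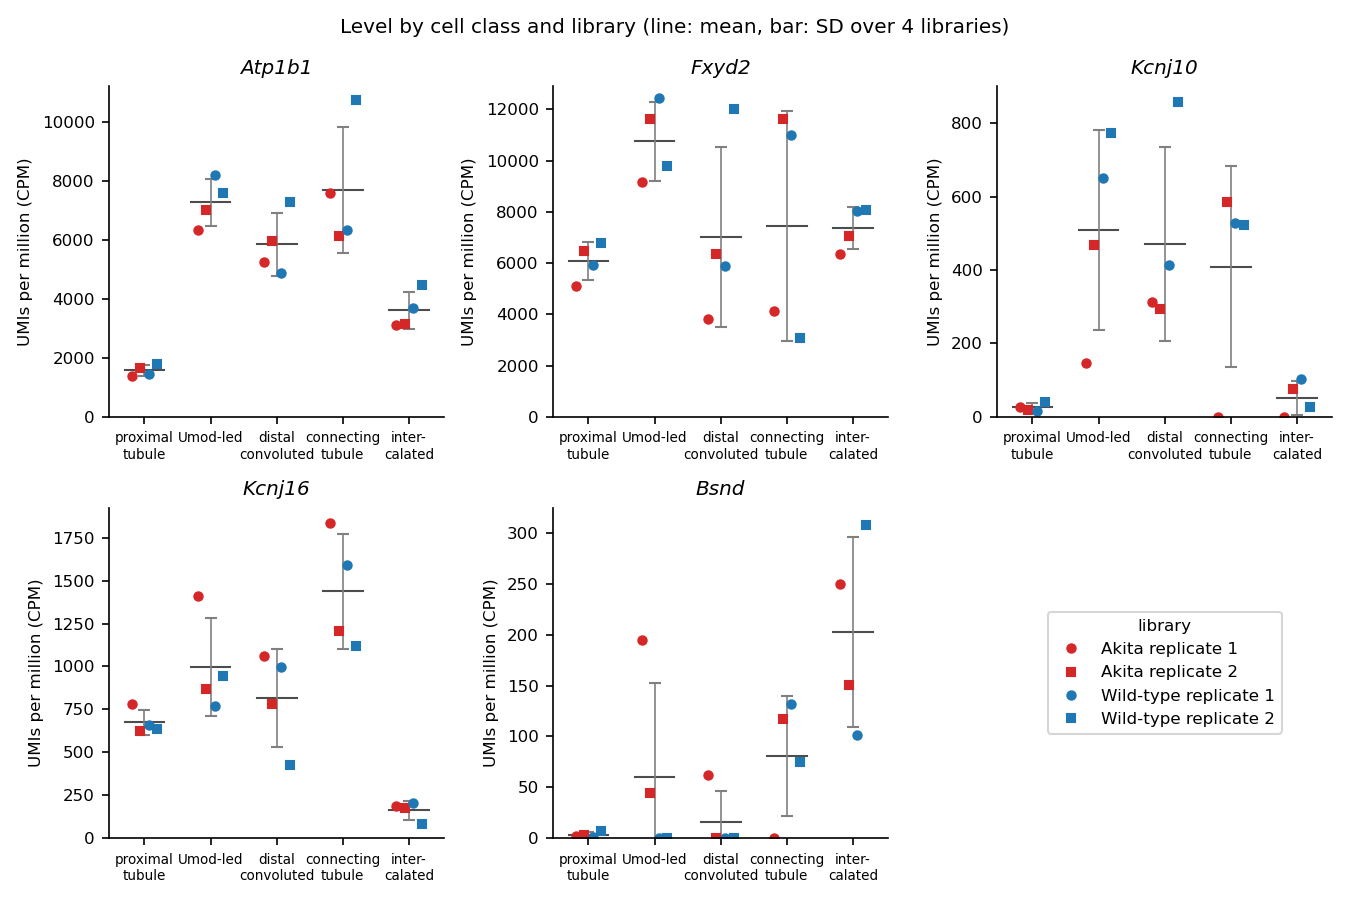
Level of each gene in CPM (y axes, linear, from 0) in 5 tubule cell classes (x axes); points are the 4 libraries, red for Akita and blue for wild type, lines are means and bars are SDs over the libraries. Atp1b1 is at 4892 CPM or more in every library of the Umod-led, distal convoluted and connecting classes and at 1786 CPM or less in every proximal sum, whereas Kcnj16 is lowest in intercalated-like cells and Bsnd has its highest mean there.

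The classes were compared over the 4 libraries, with library as a block, by edgeR's quasi-likelihood test on summed counts and Benjamini-Hochberg adjustment over all genes tested. Against proximal tubule-like cells, 395 of 616 tested genes (64.1%) differed in Umod-led cells, 31.7% higher and 32.5% lower. Of the 5 genes, 4 passed the filter on low counts and 3 were higher: Atp1b1 by 2.08 ± 0.21 on the log2 scale (SE, adjusted p = 1.5e-09), Kcnj10 by 4.20 ± 0.34 (adjusted p = 3.8e-11) and Fxyd2 by 0.70 ± 0.23 (adjusted p = 0.011). Kcnj10 was low in every proximal sum and passed the filter through the sums where it was high, so its call leans on the filter. Without the filter its difference was 4.21, with a 95% interval of 3.57 to 4.85. The same limit holds for its contrasts below in distal convoluted and connecting tubule-like cells, at 4.17 and 4.16 without the filter. In single-file values, Atp1b1 (1.95 ± 0.27) and Kcnj10 (3.77 ± 0.43) were still called and Fxyd2 was not (0.51 ± 0.27, adjusted p = 0.097). The Fxyd2 call was lost in 6 of 19 alternatives. The other 5 were those without Wild-type replicate 1 (0.61, adjusted p = 0.082), with each shared barcode assigned to its other file (0.48, adjusted p = 0.14), with all shared barcodes left out (0.46, adjusted p = 0.36), with at least 500 genes per cell (0.36, adjusted p = 0.22) and with at most 25% mitochondrial UMIs (0.48, adjusted p = 0.070). Kcnj16 was at 0.39 ± 0.18 (adjusted p = 0.059), and was called at Leiden resolution 2 (0.53, adjusted p = 0.022) and when the 5 genes and the related lists were kept in the clustering (0.44, adjusted p = 0.031). Bsnd did not pass the filter. Tested without it, where 6.15% of 19067 genes differed (2.48% higher, 3.67% lower), its difference was 3.26 with a 95% interval of 1.12 to 5.41 (adjusted p = 0.047) on 6 and 8 UMIs. With so large a share of all genes differing, the number of calls says little about these genes in particular; the sizes are what set Kcnj10 and Atp1b1 against Kcnj16 and Fxyd2.

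In distal convoluted tubule-like cells, 304 of 616 genes (49.4%) differed from the proximal class, 22.7% upward. Atp1b1 rose by 1.89 ± 0.22 (adjusted p = 5.4e-08) and Kcnj10 by 4.16 ± 0.52 (adjusted p = 2.0e-07), whereas Kcnj16 (0.29 ± 0.26, adjusted p = 0.37) and Fxyd2 (0.14 ± 0.25, adjusted p = 0.65) did not pass the test. Fxyd2 was called higher there at Leiden resolution 0.5 (0.54, adjusted p = 0.00024), with classes from marker counts (0.50, adjusted p = 0.0024) and with the genes kept in the clustering (0.65, adjusted p = 3.9e-05), so that this result depended on which cells the class held. Without the filter, where 3.01% of genes differed and 1.90% were higher, Bsnd was at 2.02 with a 95% interval of -2.23 to 6.28 (edgeR adjusted p = 0.94). Between distal convoluted tubule-like and Umod-led cells, 52 of 616 genes (8.44%) differed, 4.55% higher and 3.90% lower, and none of the 4 tested genes was among them. Without the filter (0.278% differed, 0.0787% lower) Bsnd was at -1.24 with a 95% interval of -4.71 to 2.23. The 95% intervals of that difference were -0.61 to 0.24 for Atp1b1, -0.85 to 0.77 for Kcnj10, -0.66 to 0.45 for Kcnj16 and -1.05 to -0.07 for Fxyd2 (edgeR adjusted p = 0.20). Without Wild-type replicate 2, whose distal convoluted tubule-like cells had 12015 CPM of Fxyd2, that gene was called lower there (-0.97, adjusted p = 0.023). When the 284 cells of the cluster before its split were set against the proximal class, 1813 of 3835 genes (47.3%) differed, 22.6% upward, and all 4 tested genes were higher: Atp1b1 by 2.18 ± 0.11, Kcnj10 by 4.38 ± 0.23, Fxyd2 by 0.77 ± 0.11 and Kcnj16 by 0.43 ± 0.11 (edgeR adjusted p = 4.6e-09, 4.5e-09, 5.3e-05 and 0.0067). In single-file values all 4 were still called, Kcnj16 at 0.41 ± 0.16 (adjusted p = 0.043). DESeq2 did not call Kcnj16 (0.38, adjusted p = 0.16), and with all shared barcodes left out neither Kcnj16 (0.43, adjusted p = 0.17) nor Fxyd2 (0.49, adjusted p = 0.35) was called.

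Connecting tubule-like and intercalated-like cells had only 6 and 8 cells in Akita replicate 1, and were tested in a fit with a lower minimum of 5 cells that was chosen after seeing the data. In connecting tubule-like cells 291 of 597 genes (48.7%) differed from the proximal class, 21.4% upward. There Atp1b1 rose by 2.13 ± 0.21 (edgeR adjusted p = 1.5e-10), Kcnj10 by 4.15 ± 0.49 (adjusted p = 7.0e-09) and Kcnj16 by 0.95 ± 0.21 (adjusted p = 0.00025), while Fxyd2 was at 0.16 ± 0.29. The Kcnj16 rise was called in single-file values (0.80 ± 0.31, adjusted p = 0.030), with Wild-type replicate 1 left out because it kept 2 cells of the class, and not with all shared barcodes left out (0.67, adjusted p = 0.16) or with at least 500 genes per cell (0.65, adjusted p = 0.16). Without the filter on low counts, where 3.3% of 19500 genes differed (1.58% higher, 1.72% lower), Bsnd was higher by 4.49 with a 95% interval of 2.70 to 6.28 (edgeR adjusted p = 7.5e-05). That rested on 6 and 8 UMIs.

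Intercalated-like cells differed from the proximal class in 343 of 597 genes (57.5%), 29.6% upward and 27.8% downward. Atp1b1 was higher by 1.05 ± 0.20 (edgeR adjusted p = 2.7e-05) and Kcnj16 was lower, at -2.18 ± 0.28 (adjusted p = 2.3e-08). The single-file values were 1.01 ± 0.29 and -2.39 ± 0.40, both called, with Wild-type replicate 1 left out because it kept 1 cell of the class. With all shared barcodes left out, which removed every intercalated-like cell of Wild-type replicate 1, Atp1b1 was not called (0.72, adjusted p = 0.089). Kcnj10 (0.96 ± 0.72, adjusted p = 0.26, and 0.043 with limma-voom at 1.29) and Fxyd2 (0.13 ± 0.28, adjusted p = 0.71) did not pass. Bsnd, without the filter, where 7.48% of 19500 genes differed and 4.12% were higher, was higher by 5.29 with a 95% interval of 4.23 to 6.35 (edgeR adjusted p = 2.8e-20). That rested on 24 and 8 UMIs, and Bsnd was not tested there in single-file values. Against Umod-led cells, where 179 of 597 genes (30.0%) differed, intercalated-like cells were lower in Atp1b1 (-0.97 ± 0.20), Kcnj10 (-3.14 ± 0.53) and Kcnj16 (-2.52 ± 0.31), with edgeR adjusted p = 0.00030, 1.8e-05 and 3.6e-08. With all shared barcodes left out the Atp1b1 call was lost (-0.76, adjusted p = 0.16). Against distal convoluted tubule-like cells, where 117 genes (19.6%) differed, the same 3 genes were lower by -0.75 ± 0.21, -3.11 ± 0.66 and -2.39 ± 0.37 (edgeR adjusted p = 0.010, 0.00052 and 5.6e-06). That Atp1b1 call was lost in single-file values (-0.73, adjusted p = 0.12), without Akita replicate 2 (-0.70, adjusted p = 0.0935), with all shared barcodes left out (-0.94, adjusted p = 0.11) and with at least 500 genes per cell (-0.665, adjusted p = 0.059). Bsnd was higher in intercalated-like than in Umod-led cells without the filter (2.17, 95% interval 0.99 to 3.34, edgeR adjusted p = 0.022; 1.25% of genes were higher), and not called against distal convoluted tubule-like cells (3.29, adjusted p = 0.12).

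**Figure D2:**
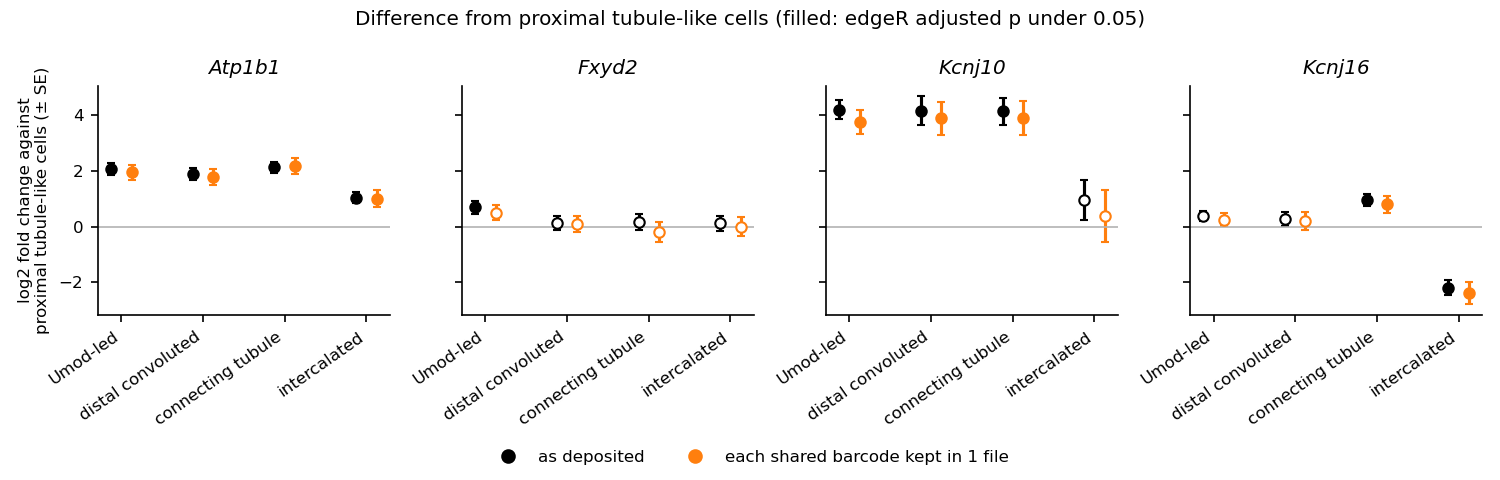
Log2 fold change of the 4 tested genes against proximal tubule-like cells (y axis, ± SE) in 4 cell classes (x axis), from cells as deposited (black) and from single-file cells (orange); filled points have an edgeR adjusted p under 0.05. Kcnj10 lies near 4 in 3 classes and Atp1b1 near 2, Fxyd2 stays under 1, and Kcnj16 is at -2.18 in intercalated-like cells.

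The share of cells with at least 1 UMI was also counted. Atp1b1 was detected in 60.9% of proximal tubule-like cells (95% exact binomial interval 58.3% to 63.4%) and in 89.5% of Umod-led cells (84.0% to 93.7%), although the Umod-led cells were shallower, with a median of 642.5 against 793 UMIs. After thinning each cell to 300 UMIs, which left out 29 of the proximal and 5 of the Umod-led cells, the shares were 29.9% and 78.4%. Kcnj10 was found in 3.25% of proximal tubule-like, 30.2% of Umod-led, 34.7% of distal convoluted tubule-like, 32.2% of connecting tubule-like and 2.70% of intercalated-like cells, and after thinning in 0.565%, 16.2%, 12.2%, 16.9% and 0.917%. The intervals of the proximal and intercalated shares overlapped (2.40% to 4.30% and 0.561% to 7.70%). Kcnj16 was found in 45.9% of proximal tubule-like and 59.3% of connecting tubule-like cells but in 8.11% of intercalated-like cells (3.78% to 14.8%), where the median depth of 782 UMIs was close to the proximal one. Bsnd was found in 20.7% of intercalated-like cells (13.6% to 29.5%), in 10.2% of connecting tubule-like cells (3.82% to 20.8%) in 30.2% of the unnamed deep cells (19.2% to 43.0%) and in 0.554% of proximal tubule-like cells (0.239% to 1.09%). After thinning, the Bsnd shares were 3.67% (1.01% to 9.13%), 5.08% (1.06% to 14.2%), 9.52% (3.58% to 19.6%) and 0.141% (0.0171% to 0.509%), and those of the intercalated, connecting and unnamed cells overlapped in their intervals. The shares did not order the classes as the CPM did: for Kcnj10 and Kcnj16 the distal convoluted share lay above the Umod-led one (34.7% against 30.2%, and 55.1% against 48.3%), at a median of 972 against 642.5 UMIs and with overlapping intervals. No Kcnj10 or Bsnd UMI was seen in the 17 macrophage- or dendritic-like cells, which at their median of 585 UMIs allows a share of cells with a UMI of up to 17.6% (3 counts of 17) and sets no limit on cells that express the genes.

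**Figure D3:**
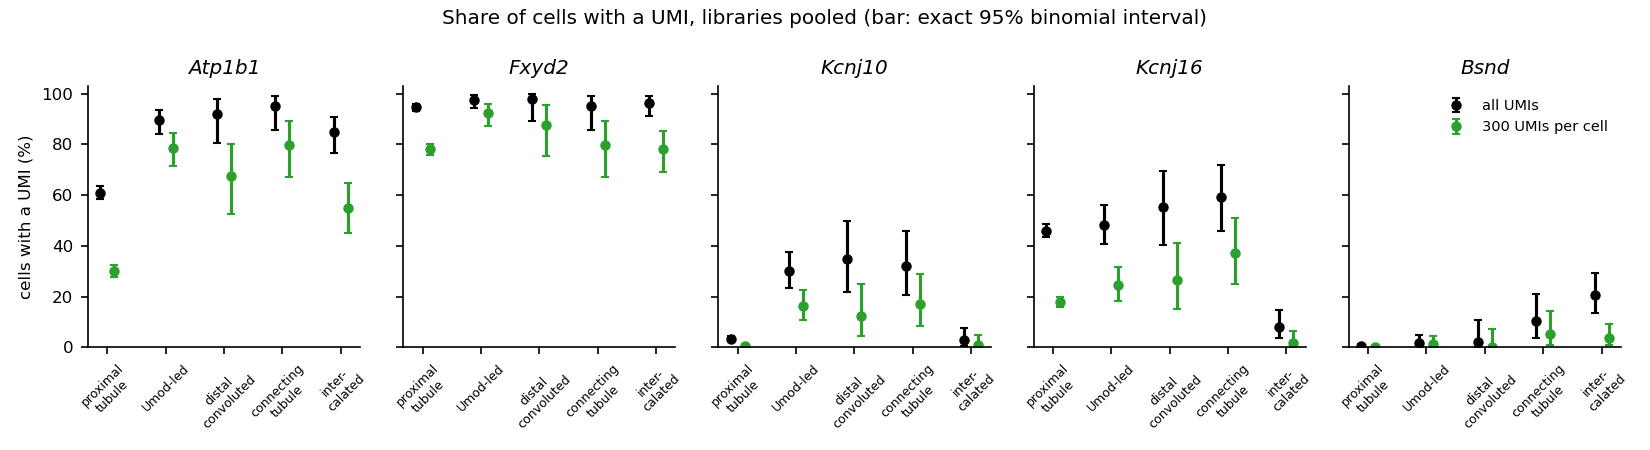
Share of cells with a UMI of each gene (y axis, percent) by cell class (x axis), libraries pooled, with all UMIs (black) and after thinning to 300 UMIs per cell (green); bars are exact 95% binomial intervals, which cover counting error only. Atp1b1 and Kcnj10 separate the proximal class from the Umod-led, distal convoluted and connecting classes, and Bsnd reaches 20.7% in intercalated-like cells.

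Since Kir4.1 and Kir5.1 form one channel, their joint detection was counted in single-file cells. In Umod-led cells, 18 of the 37 cells with a Kcnj10 UMI also had a Kcnj16 UMI (48.6%), against 47.4% of all 133 such cells. In distal convoluted tubule-like cells it was 9 of 14 (64.3%) against 52.5%, and in connecting tubule-like cells 10 of 15 (66.7%) against 58.7%. In proximal tubule-like cells it was 35 of 44 (79.5%) against 46.5%, but the proximal cells with a Kcnj10 UMI had a median of 3102 UMIs against 786 for all of them. In the unnamed deep cells it was 31 of 32 (96.9%) against 82.6%, at a median of 3232 against 2546 UMIs. The median depth of cells with Kcnj10 was also above that of their class in Umod-led (780 against 641 UMIs), distal convoluted tubule-like (1080 against 1038) and connecting tubule-like cells (1078 against 772). Cells with Kcnj10 thus carried Kcnj16 about as often as their class did in Umod-led cells, and more often in the proximal and unnamed cells. The distal convoluted and connecting counts were too small to tell. The proximal gap, the largest of these, ran with depth, whose part in it was not tested.

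Within the proximal tubule-like cells the genes did not move together. These cells fell into 8 clusters of 123 to 308 cells, described here by values pooled over libraries and without a test. Atp1b1 ran from 676 CPM, in a cluster led by Gatm and Acss1, to 2294 CPM in one led by Dnase1 and Aldh1a7. Kcnj16 ran from 441 CPM in that same Gatm cluster to 945 CPM in a cluster led by Spp2, the only one with 3 markers of the S1 segment, the first part of the proximal tubule; there Atp1b1 was the second lowest, at 1022 CPM. Fxyd2 ran from 5342 to 8106 CPM, highest in the Dnase1 cluster. Kcnj10 was at 9.38 to 39.1 CPM and Bsnd at 0 to 5.62 CPM, both under their levels in the barcodes with under 200 genes. Cluster sizes were uneven over libraries, with 80 of the 152 Spp2 cells in Wild-type replicate 1 and 8 of the 165 cells of the cluster led by Slco1a1 in Akita replicate 1.

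The sub-clusters of the split cluster are described by values pooled over libraries, without a test. Kcnj16 was near one level in them. The larger Umod-led sub-cluster, almost without Slc12a1, had 7860 CPM of Atp1b1, 12314 CPM of Fxyd2, 653 CPM of Kcnj10 and 953 CPM of Kcnj16, and none of its 112 cells had a Bsnd UMI. The smaller one, with Slc12a1, had 6188 CPM of Atp1b1, 7900 CPM of Fxyd2, 293 CPM of Kcnj10 on 12 UMIs, 929 CPM of Kcnj16 and 147 CPM of Bsnd on 6 UMIs. The smaller sub-cluster was itself not alike between libraries: Slc12a1 was at 6544 and 7467 CPM in Akita replicate 1 and Wild-type replicate 2, and at 875 and 1504 CPM in Akita replicate 2 and Wild-type replicate 1, the libraries that share barcodes. Kcnj10 was lower in the smaller than in the larger sub-cluster in 3 of the 4 libraries, the exception being Akita replicate 1 (222 against 86.6 CPM, on 2 and 1 UMIs). The unnamed deep cells had 7326 CPM of Atp1b1, 10885 CPM of Fxyd2, 553 CPM of Kcnj10 and 907 CPM of Kcnj16, close to the Umod-led values.

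The related genes were read from 5 lists. Among 12 other sodium pump subunits, 7 had a UMI. Atp1b3, another beta subunit, had 102 UMIs in the retained cells and Fxyd4, the channel-inducing factor of the collecting duct, 15.

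Of 9 other potassium channels of tubule cells, 7 had a UMI and 2 were tested in the class contrasts. Kcnj1, the apical ROMK channel, followed Kcnj10: it was higher than in the proximal class by 4.82 ± 0.35 in Umod-led, 4.32 ± 0.58 in distal convoluted tubule-like and 4.57 ± 0.50 in connecting tubule-like cells (edgeR adjusted p = 7.1e-12, 6.5e-07 and 1.8e-09), and was not called in intercalated-like cells, which held 1 UMI of it. Kcnj15, which encodes Kir4.2, a partner of Kir5.1 in the proximal tubule, went the other way and was lower in all 4 classes, from -2.51 ± 0.40 in intercalated-like to -3.66 ± 0.44 in Umod-led cells, with edgeR adjusted p = 1.9e-06 and 4.3e-08. It was at 460, 426, 396 and 471 CPM in proximal tubule-like cells and between 0 and 97.3 CPM in Umod-led cells. Kcnk5, a two-pore-domain potassium channel, had 131 of its 136 UMIs in proximal tubule-like cells (single-file values), and was tested and lower in the cluster before the split (-2.65 ± 0.47, edgeR adjusted p = 0.00033).

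All 9 other chloride channels and potassium-chloride cotransporters had UMIs. Clcn3 and Clcn5, which serve endosomes, were at 154 and 102 CPM over all retained cells and were not called in the cluster before the split (-0.28 ± 0.19 and -0.65 ± 0.26, edgeR adjusted p = 0.25 and 0.052).

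Of 6 sodium entry and bicarbonate exit carriers, Slc4a4, the basolateral sodium-bicarbonate cotransporter of the proximal tubule, was the one tested in the 4 class contrasts. It was lower in all 4 classes, from -2.39 ± 0.37 in distal convoluted tubule-like to -4.03 ± 0.34 in Umod-led cells (edgeR adjusted p = 5.4e-06 and 6.7e-11). Slc12a2 and Slc9a3, the latter the apical sodium-proton exchanger, had 68 of 76 and 69 of 70 UMIs in proximal tubule-like cells (single-file values). In the cluster before the split Scnn1a, a subunit of the epithelial sodium channel that is named here because it was called, was also tested and was higher (4.74 ± 0.52, edgeR adjusted p = 4.9e-06), and in single-file values it was not tested. Of 12 regulators of distal salt transport, 3 were tested in Umod-led cells and all were higher, where 31.7% of all tested genes were: Wnk1 by 3.78 ± 0.28, Klhl3 by 3.53 ± 0.32 and Wnk4, named here because it was called, by 2.51 ± 0.44 (edgeR adjusted p = 8.3e-12, 3.1e-10 and 1.5e-05). In single-file values Wnk4 was not tested there. In distal convoluted tubule-like cells Klhl3, the adaptor that brings WNK kinases to degradation, was higher than in Umod-led cells by 1.75 ± 0.31 and Wnk1 by 1.11 ± 0.29 (edgeR adjusted p = 0.00028 and 0.016), the contrast in which none of the 4 tested pump and channel genes was called. Cul3 was at 77.0 CPM over all retained cells and was lower in the cluster before the split (-0.75 ± 0.27, edgeR adjusted p = 0.035), but was not called in single-file values (-0.72 ± 0.38, adjusted p = 0.14).

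**Figure D4:**
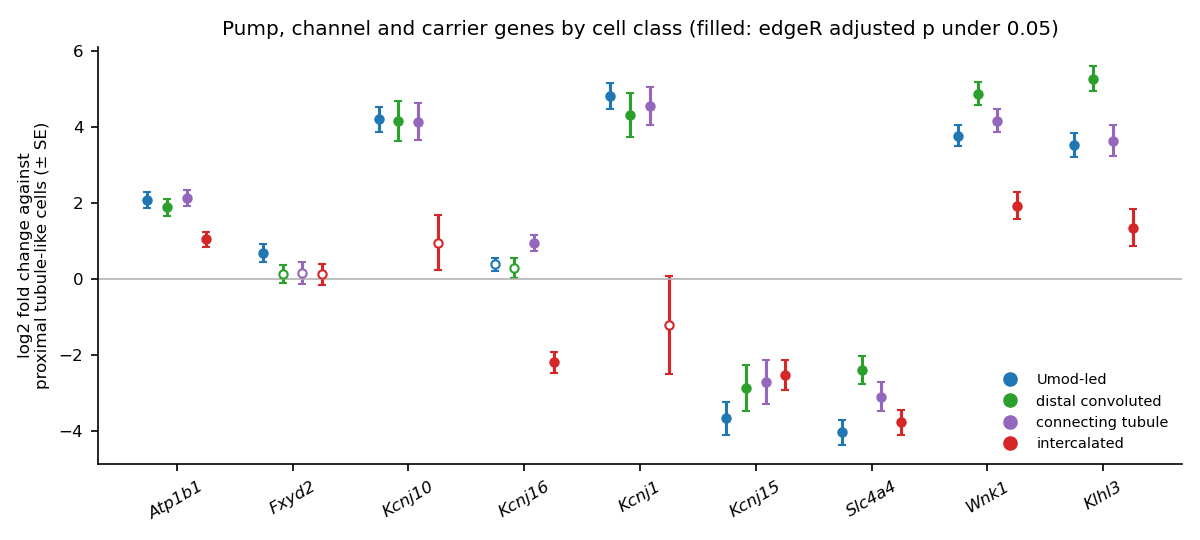
Log2 fold change against proximal tubule-like cells (y axis, ± SE) of 4 of the 5 genes and of 5 related genes tested in every class (x axis), by cell class (colours); filled points have an edgeR adjusted p under 0.05. Kcnj10 and Kcnj1 lie above 4 in the Umod-led, distal convoluted and connecting classes, and Kcnj15 and Slc4a4 are below -2 throughout.

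The genes whose levels were most like each of the 5 were sought over 12 sums, the proximal, Umod-led and distal convoluted classes in 4 libraries, among 4426 genes, by Pearson's r of log2(CPM + 10). The sums share libraries and depths, and the r values are descriptions. Tmem213 (r = 0.99), Ppp1r1a (0.99) and Egf (0.98) were most like Atp1b1, and Tmem213 (0.98), Epcam (0.97) and Ckb (0.97) most like Kcnj10, so that 1 gene was on both lists. Fxyd2 was nearest to Ndufb8 (0.95), Sdhb (0.92) and Ndufa8 (0.92), which encode parts of mitochondrial respiratory complexes. Kcnj16 was nearest to Lamb1 (0.91), Stard8 (0.90) and Iqgap1 (0.90), and Bsnd, on its few UMIs, to Mpnd (0.91), Map2k1 (0.85) and Prpf40b (0.85).

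Between Akita and wild-type libraries, none of the 5 genes passed the test in any set of cells. Over all retained cells Atp1b1 was at 2494 and 2775 CPM in Akita against 2469 and 2857 CPM in wild type, Fxyd2 at 6006 and 7393 against 6764 and 7242 CPM, Kcnj10 at 84.3 and 131 against 114 and 131 CPM, and Kcnj16 at 821 and 656 against 677 and 661 CPM. The groups overlapped for each of these 4 genes. The log2 differences, Akita against wild type, were -0.01 ± 0.23 for Atp1b1, -0.06 ± 0.25 for Fxyd2, -0.16 ± 0.27 for Kcnj10 and 0.13 ± 0.21 for Kcnj16 (edgeR adjusted p of 1.0 for each), with 95% intervals of -0.46 to 0.44, -0.56 to 0.44, -0.68 to 0.36 and -0.28 to 0.54. These values count 424 barcodes retained in both Akita replicate 2 and Wild-type replicate 1, so the 2 groups are not independent and the intervals do not bound a genotype effect. In single-file values the differences were 0.17 ± 0.28 for Atp1b1, 0.15 ± 0.31 for Fxyd2, -0.02 ± 0.32 for Kcnj10 and 0.11 ± 0.24 for Kcnj16. The groups overlapped there too, and none of these genes was called. Of 7169 genes tested, 0 were called by edgeR (0%), DESeq2 and limma-voom, and 68, 7 and 57 had an unadjusted p under 0.05. Without Akita replicate 1, Akita replicate 2 or Wild-type replicate 1, 1, 23 and 14 genes were called, none of them among the 5. The exact permutation test of the shares of cells with a UMI cannot go below p = 0.333 with 2 against 2 libraries, and the mean share of cells with an Atp1b1 UMI was 66.0% in Akita and 69.2% in wild-type libraries (p = 0.333).

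Bsnd over all retained cells was at 30.5 and 35.7 CPM in Akita against 20.9 and 22.7 CPM in wild type. The groups did not overlap, as was so for 23.6% of all tested genes (0.61 ± 0.39, 95% interval -0.16 to 1.38, edgeR adjusted p = 1.0). The value depended on how shared barcodes were treated. In single-file values Bsnd was at 30.5 and 46.6 against 6.25 and 22.7 CPM, on 17, 25, 3 and 16 UMIs (1.34 ± 0.56, unadjusted p = 0.033, adjusted p = 1.0 with edgeR). With each shared barcode assigned to its other file the difference was -0.175 (adjusted p = 1.0). Intercalated-like cells, which held the most Bsnd per UMI, made up 2.57% and 5.83% of the Akita cells and 5.32% and 8.62% of the wild-type cells; the part of cell composition was not tested.

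In proximal tubule-like cells the differences were -0.09 ± 0.25 for Atp1b1, -0.13 ± 0.29 for Fxyd2, -0.25 ± 0.50 for Kcnj10 and 0.11 ± 0.23 for Kcnj16, with 0 of 6094 genes called (0%) by edgeR, DESeq2 and limma-voom and 58, 7 and 49 at an unadjusted p under 0.05. Without Akita replicate 1, Akita replicate 2 or Wild-type replicate 1, 2, 11 and 13 genes were called there, again none of the 5. Bsnd did not pass the filter. The single-file values of Atp1b1 and Fxyd2 were 0.06 ± 0.30 and 0.09 ± 0.35, of the opposite sign and far inside their errors.

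Among the 5 genes, as deposited and after the filter on low counts, only Kcnj10 in Umod-led cells had an unadjusted p under 0.05 by genotype. It was at 146 and 467 CPM in Akita against 651 and 772 CPM in wild type, on 3, 21, 22 and 27 UMIs. The groups did not overlap, as was so for 25% of the genes tested there. The log2 difference was -0.95 ± 0.39 (95% interval -1.72 to -0.18, unadjusted p = 0.025, edgeR adjusted p = 1.0), and the adjusted p lay between 0.36 and 1.0 over 21 alternatives. It was -1.53 ± 0.44 in single-file values, where Wild-type replicate 1 kept 14 Umod-led cells. The difference was -0.59 without Akita replicate 1, which held 3 of the UMIs, and -2.10 without Akita replicate 2. With all shared barcodes left out it was -2.04. There Wild-type replicate 2 was the only wild-type library, because Wild-type replicate 1 kept 4 Umod-led cells. With classes from marker counts the difference was -0.34. A Kcnj10 UMI was found in 2 of 25 and 16 of 60 Umod-led cells in Akita, and in 17 of 43 and 17 of 44 in wild type (exact permutation p = 0.333, the smallest possible). The larger sub-cluster, with more Kcnj10, made up 16 of 25, 37 of 60, 29 of 43 and 30 of 44 of these cells. Atp1b1 was also lower in both Akita libraries there, 6322 and 7006 against 8201 and 7577 CPM (-0.15 ± 0.26), and Fxyd2 was at 0.00 ± 0.26 and Kcnj16 at 0.44 ± 0.35. No gene of 476 was called (0%) by edgeR, DESeq2 or limma-voom, with 6, 0 and 7 at an unadjusted p under 0.05; 1 gene, not one of the 5, was called in single-file values, and 1, 4 and 1 without Akita replicate 1, Akita replicate 2 and Wild-type replicate 1.

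The genotype difference itself was compared between Umod-led and proximal tubule-like cells. For Kcnj10 the interaction was -0.88 ± 0.82, for Atp1b1 -0.21 ± 0.32, for Kcnj16 0.19 ± 0.40 and for Fxyd2 -0.01 ± 0.32, and 0 of 3299 genes (0%) passed with edgeR, DESeq2 or limma-voom, with 36, 5 and 62 at an unadjusted p under 0.05. Without Wild-type replicate 1, and in single-file values, 1 gene passed, not one of the 5. Among the related genes, none of the tested members of the 5 lists was called by genotype in all retained, proximal tubule-like or Umod-led cells; Kcnj15 was at -0.03 ± 0.20 and Slc4a4 at 0.08 ± 0.23 over all retained cells. Distal convoluted tubule-like, connecting tubule-like and intercalated-like cells had under 20 cells in at least 1 library and were not tested by genotype.

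**Figure D5:**
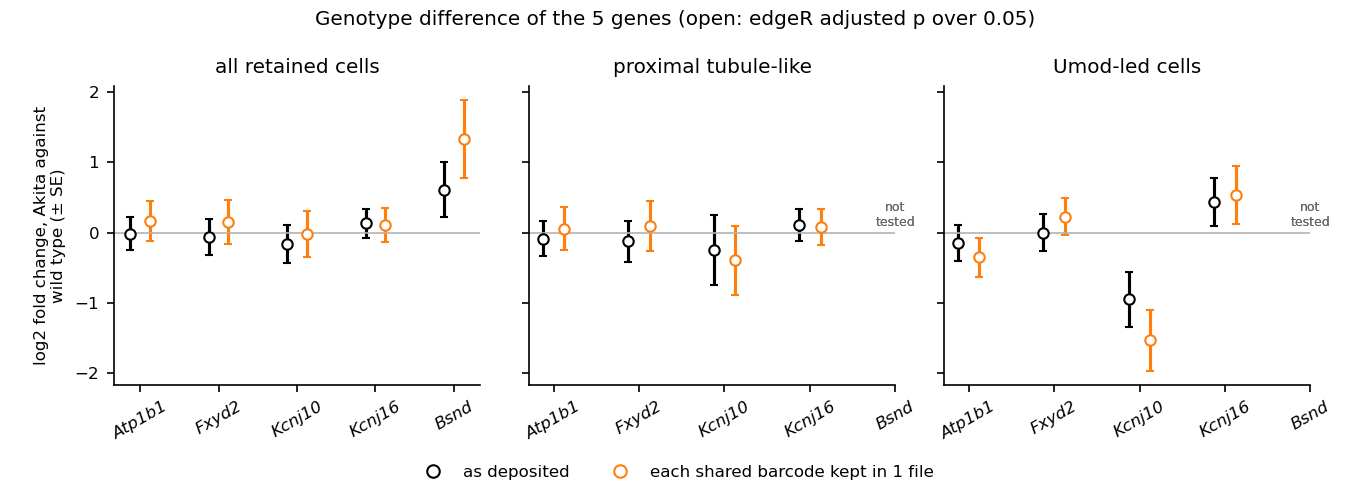
Log2 fold change of Akita against wild-type libraries (y axis, ± SE) for the 5 genes (x axis) in all retained, proximal tubule-like and Umod-led cells, from cells as deposited (black) and from single-file cells (orange). No point passes the edgeR test, the Kcnj10 value in Umod-led cells is at -0.95, and Bsnd was tested only over all retained cells.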

How the data were processed

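Drop-seq UMI counts per gene and barcode, as deposited by the authors, were used for 4 libraries; per the submitters' processing notes the tools were STAR 2.5.2b, UMI-tools 0.5.3 and featureCounts 1.6.0 with GRCm38. The 5 genes, the related lists and the markers were chosen with earlier results of these data known. Each file held 1998 to 2000 barcode strings, of which 4 were not barcodes (1.08% to 1.33% of UMIs) and were dropped. Barcodes with at least 200 genes and at most 50% mitochondrial UMIs were retained, with a median of 746.5 to 835 UMIs. Doublets were not called. Cells were clustered with scanpy 1.11.5 (2000 variable genes, 30 components, 15 neighbours, Leiden resolution 1) and named from at least 3 markers among 50 leading genes. The split of 1 cluster (resolution 0.7), its use unsplit, and the connecting tubule-like and intercalated-like fit were chosen after seeing the data. Counts were summed per library and class (at least 10 cells, 5 in that fit and in the alternatives, 20 by genotype) and tested with edgeR 4.0.16 (TMM, filterByExpr, quasi-likelihood), with a library block between classes. DESeq2 1.42.0 and limma 3.58.1 were alternatives, with those on cells, classes and shared barcodes. The scripts were tested on simulated data with a set spread. By genotype, 11 of 100 genes changed 2-fold were recovered over all cells, 11 in proximal and 28 in Umod-led cells. At a 4-fold change 86, 83 and 72 were recovered, so a missing genotype call does not exclude a 2-fold change. Of each list, the 3 genes with the highest CPM were to be named, some of which are not reported here; Wnk4 and Scnn1a were added after their values were seen. Per the labels, each library came from 1 kidney. The p-values of the fits use the spread between these libraries after information on it is pooled over genes. A very small one therefore does not rest on a gene's own values alone. As deposited, 2 of the libraries share barcodes, so the spread is not that of 4 independent libraries. Binomial and Poisson intervals cover counting error only, and intervals of log2 differences come from the SE of the fit across libraries. Same-numbered replicates did not deviate together (r = -0.24 over 7169 genes).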

Additional observations from a re-analysis of the deposited data

How the results depend on the processing

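The rise of Atp1b1 and Kcnj10 over proximal tubule-like cells in Umod-led, distal convoluted tubule-like and connecting tubule-like cells, and the lower Kcnj16 of intercalated-like cells, kept their direction and passed the test in every alternative that gave a value. Signs turned for differences that did not pass the main test, as listed; the cause was not tested. The genotype contrast with the replicate block called 0 genes in all 3 sets of cells, as did the fit without it, and gave Fxyd2 in Umod-led cells as 0.001; the numbers pair no animals. With the pairing crossed, 0, 0 and 2 genes were called in all retained, proximal and Umod-led cells. In single-file values, Akita against wild type was 0.167 for Atp1b1 and 0.152 for Fxyd2 in all cells, 0.058 and 0.090 in proximal and 0.228 for Fxyd2 in Umod-led cells (1 gene called); the interaction was 0.233 for Fxyd2 (1 gene called), and segment differences were -0.189 for Fxyd2 (connecting against proximal), 0.114 for Kcnj10 (distal convoluted against Umod-led) and -0.055 for Fxyd2 (intercalated against distal convoluted). With the replicate block added these genotype values were 0.181, 0.142, 0.061, 0.073 and 0.228, with 10 genes called in proximal and 1 in Umod-led cells. With the other file kept, Bsnd by genotype was -0.175 (6 genes called; 5 in proximal cells), the Fxyd2 interaction 0.048, and Fxyd2 -0.157 and -0.051 in intercalated against distal convoluted and proximal cells. With shared barcodes left out, genotype differences were 0.222 (Atp1b1) and 0.192 (Fxyd2) in all cells, 0.133, 0.087 and -0.006 (Atp1b1, Fxyd2, Kcnj16) in proximal and 0.054 (Fxyd2) in Umod-led cells, the Fxyd2 interaction was 0.205, and segment differences were -0.247 (Fxyd2, connecting), 0.061 and 0.333 (Atp1b1, Kcnj10, distal convoluted against Umod-led), -0.413 (Fxyd2, intercalated against distal convoluted), and -0.181 and -1.212 (Fxyd2, Kcnj10, intercalated against proximal); 1 of the 5 genes was then called in intercalated-like cells and 2 in the unsplit cluster. Class choices gave, at Leiden resolution 0.5, Fxyd2 0.004 (genotype, Umod-led), 0.071 (interaction) and -0.399 (intercalated against distal convoluted) and Kcnj10 0.157 (distal convoluted against Umod-led). With the genes kept in clustering, Fxyd2 was 0.081, 0.089 and -0.437 in the same 3 contrasts, and 4 of the 5 genes were called in distal convoluted against proximal cells. Classes from marker counts gave Fxyd2 0.097 (genotype, Umod-led), interactions of 0.194, 0.332 and -0.119 (Atp1b1, Fxyd2, Kcnj16), -0.083 (Fxyd2, connecting), 0.055 (Kcnj16, distal convoluted against Umod-led), -0.405 (Fxyd2, intercalated against distal convoluted) and -1.745 (Kcnj10, intercalated against proximal). With at least 500 genes per cell Atp1b1 by genotype was 0.037 and Kcnj16 0.181 (distal convoluted against Umod-led), and with at most 25% mitochondrial UMIs Fxyd2 was -0.167 and -0.012 (intercalated against distal convoluted and proximal); under each, 1 of the 5 genes was called in Umod-led and in distal convoluted against proximal cells. The Fxyd2 interaction was 0.054 with RLE factors, 0.056 with DESeq2, 0.001 with limma-voom and 0.044 without mitochondrial genes, and Kcnj10 (distal convoluted against Umod-led) 0.016, 0.027 and 0.072 with the first 3; limma-voom gave Fxyd2 as -0.027 (connecting) and leaving out mitochondrial genes -0.026 (intercalated against proximal). Without the filter 1 gene was called by genotype in each of the 3 sets. Leaving out 1 library moved genotype differences from -0.162 to 0.105 (Atp1b1), -0.291 to 0.122 (Fxyd2) and -0.607 to 0.142 (Kcnj10) in all cells with 0 to 23 genes called, from -0.307 to 0.086, -0.394 to 0.084 and -0.723 to 0.407 in proximal cells with 0 to 13, and from -0.148 to 0.152 (Fxyd2) in Umod-led cells with 0 to 4; the Fxyd2 interaction ran from -0.217 to 0.259 with 0 to 1. Fxyd2 ran from -0.221 to 0.344 (connecting), -0.259 to 0.178 (distal convoluted) and -0.016 to 0.138 (intercalated against proximal), and -0.042 to 0.319 (intercalated against distal convoluted). Distal convoluted against Umod-led, Kcnj10 ran from -0.271 to 0.130 and Kcnj16 from -0.324 to 0.060, with 0 to 1 of the 5 genes called. Over all alternatives the genes called ran from 174 to 1172 (Umod-led), 133 to 942 (distal convoluted), 153 to 643 (connecting), 181 to 1458 (intercalated) and 568 to 2632 (unsplit) against proximal cells, from 11 to 99 in distal convoluted and 48 to 343 in intercalated against Umod-led cells, and from 54 to 218 in intercalated against distal convoluted cells. Depth limited Bsnd, with 77 UMIs in all, and Kcnj10 in small classes.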
